A study of Mus musculus with 8 samples.

Results

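The 35 genes described here encode the contractile apparatus of a nonmuscle cell and the proteins that bind its actin filaments: the cytoplasmic actins, the heavy and light chains of nonmuscle myosin II, myosin light chain kinase, the tropomyosins, caldesmon, the calponins and transgelins, filament crosslinkers and adhesion linkers, proteins of filament turnover, and GTPases and kinases of contraction. They were listed by gene symbol, at a time when earlier results of these data were known, and all 35 were found among the 55414 genes of the deposited table. The cells were mpkCCD cells, a re-cloned line from cortical collecting ducts of SV-PK/Tag transgenic mice, so that all libraries come from 1 clone. Cells of 4 libraries received 50 nM tolvaptan, an antagonist of the vasopressin V2 receptor, together with 0.1 nM of the V2 agonist dDAVP for 24 h, and cells of the other 4 libraries received vehicle together with 0.1 nM dDAVP. All cells had been grown to confluence on permeable supports in dDAVP, so there is no group without the agonist. The question put to these libraries was how the antagonist changes the transcriptome while the agonist is still present. In RNA from whole cultures, a change in the share of cells that express a gene and a change in RNA per cell cannot be told apart.

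Actomyosin contracts when nonmuscle myosin II, a hexamer of heavy chains, essential light chains and regulatory light chains, pulls on filaments of actin. Phosphorylation of the regulatory light chain by myosin light chain kinase switches the motor on, and tropomyosin, caldesmon and calponin lie along the filament and limit access of myosin to it. In collecting duct principal cells the actin network and RhoA are known for restraining the movement of vesicles that carry aquaporin-2 to the apical membrane, and vasopressin is known to loosen that network.

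Expression was given as TPM, a share of all transcripts that is corrected for transcript length and scaled to 1 total in every library. How many reads a value rests on is therefore unknown, and a rise of some transcripts lowers the share left for others. Of the 35 genes, 29 exceeded 10 TPM in at least 1 library and were tested among 9943 such genes by limma on log2(TPM + 1), with adjustment over all 9943. Fold changes on this scale understate the change of scarce genes. A gene is called here at an adjusted p under 0.05, and each SD is taken over the 4 libraries of a group. The sample records do not say whether the libraries came from separate cultures, so each p measures no more than how far these libraries spread.

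With tolvaptan, 12 of the 29 genes rose and 1 fell. The genes that rose were Cald1, Myh10, Gsn, Mylk, Tpm1, Flna, Zyx, Actb, Tln1, Vcl, Cnn2 and Myl6, and the gene that fell was Tagln2. The rises were 41.4% of the genes tested, against 10% of all 9943 genes, and the fall was 3.45% of them, against 6.1% of all genes. All but Cald1 changed by less than 1.5-fold on the log2(TPM + 1) scale (0.585). Myh10 came close on that scale, and the ratio of its mean TPM was 1.51. The median log2 fold change was 0.12 over the 29 genes and 0.05 over all genes. Every tolvaptan library lay above every dDAVP library for 12 of the 29 genes, against 15.1% of all genes, and below for 2, against 7.99% of all genes. The smallest p that an exact permutation test of 4 against 4 libraries allows is 0.0286. When the libraries were shifted to a common median, 9 of the 29 rose (5.79% of all genes) and 2 fell (8.3% of all genes). After quantile normalization, 12 of the 29 rose (6.16% of all genes) and 1 fell (6.84% of all genes). Rises made up 41.1% of all calls with the common median and 47.4% after quantile normalization, against 62.1% on the values as deposited.

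**Figure D1:**
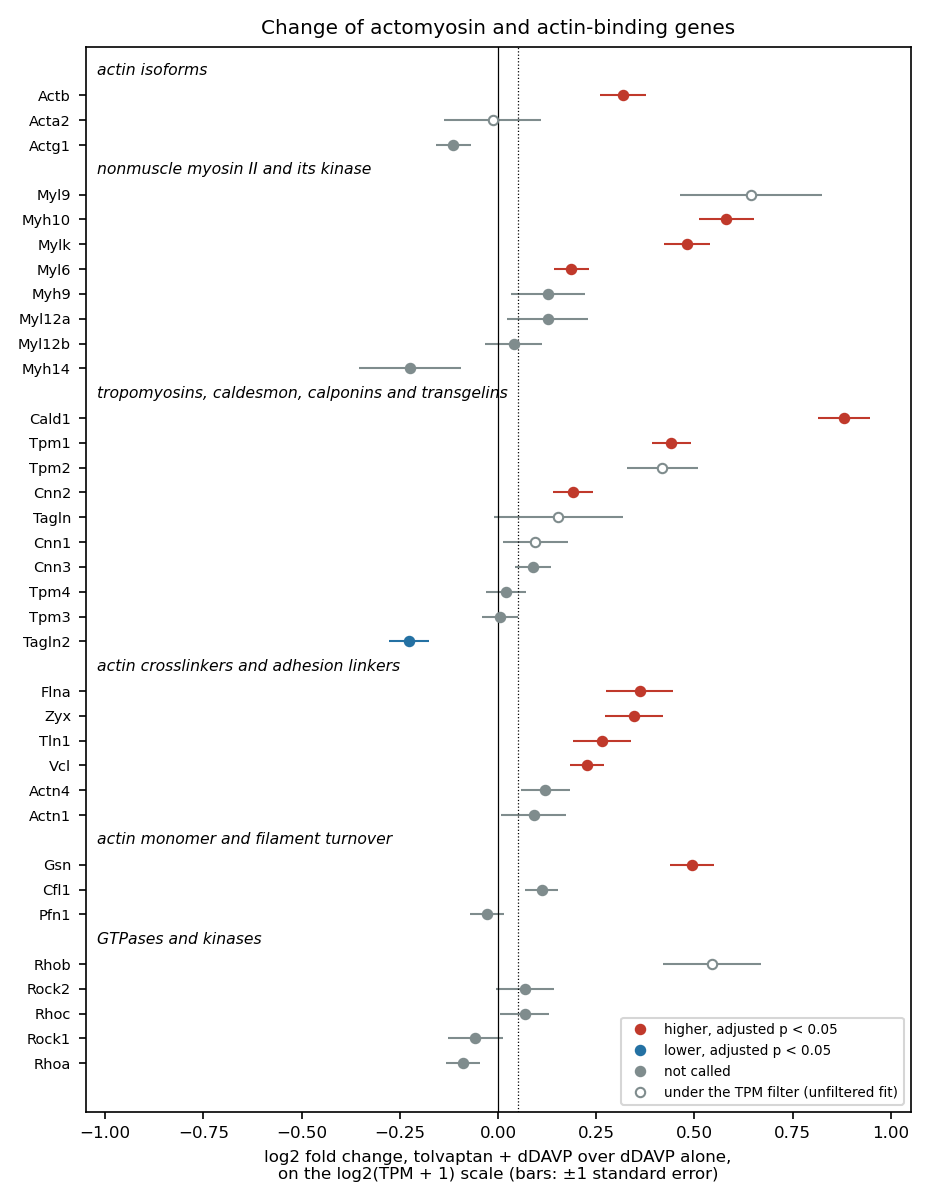
Log2 fold changes of the 35 genes (x axis, tolvaptan plus dDAVP over dDAVP alone, on the log2(TPM + 1) scale), grouped by role, with bars of 1 standard error; filled points were tested among 9943 genes, open points come from a fit without the TPM filter, and the dotted line is the median of all genes, 0.05. Cald1 stands farthest right at 0.88, 12 genes are called higher and Tagln2 is called lower at -0.23.

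1 library stood apart. Among the 9943 genes, 2030 lay more than 0.3 log2 units from the mean of the other tolvaptan libraries in tolvaptan replicate 4, against 475 to 863 in the other tolvaptan libraries and 323 to 416 in the dDAVP libraries. Across the 29 genes, its deviation went with the GC content of the transcript (Spearman correlation 0.82, across genes, which share 1 library and are not independent). Across 9835 genes the correlation was 0.72 in this library, between -0.57 and -0.26 in the other tolvaptan libraries and between -0.25 and 0.21 in the dDAVP libraries. Each library was set against the mean of the others of its group. The counts and correlations of the other tolvaptan libraries therefore hold replicate 4 in their reference and are not independent of it. Results that rest on it are given with and without it, and after removal of each library's trend on GC content, an adjustment chosen after the data had been seen. Without tolvaptan replicate 4, 16 of the 29 genes rose (15.2% of all genes) and 2 fell (8.73% of all genes). After the GC adjustment, 11 rose (9.51% of all genes) and 4 fell (12.5% of all genes), and this adjustment also removes any difference between the groups that runs with GC content.

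The cells carried the markers of a collecting duct epithelium, many of them at a lower level with tolvaptan. Of 10 such markers 7 fell and 1 rose, and their summed level was 7751 to 9153 TPM with tolvaptan, against 13260 to 13920 TPM with dDAVP alone. Aqp2, the vasopressin-regulated water channel, stood at 237 to 339 TPM with tolvaptan, against 2828 to 3211 TPM with dDAVP alone, and the part of this fall in the other TPM was not tested. Cdh1, the gene of E-cadherin, stood at 797 to 866 TPM with tolvaptan, against 826 to 878 TPM with dDAVP alone. Myh11, the smooth muscle myosin heavy chain, did not exceed 0.27 TPM with tolvaptan or 0.22 TPM with dDAVP alone, and the markers Des, Lmod1 and Actg2 reached at most 0.30 TPM in any library. The 10 smooth muscle and pericyte markers summed to 23.1 to 33.9 TPM with tolvaptan, against 20.7 to 27.4 TPM with dDAVP alone, nearly all of it Notch3 and Mcam, which epithelial cells can also express, and none of the 10 was at 0 in every library. The 9 fibroblast markers summed to 0.57 to 1.76 TPM with tolvaptan, against 0.26 to 1.82 TPM with dDAVP alone, the 6 endothelial markers to 0.55 to 1.08 TPM with tolvaptan, against 0.53 to 1.92 TPM with dDAVP alone, and the 6 leukocyte markers, mostly Csf1r, to 22.1 to 26.1 TPM with tolvaptan, against 19.6 to 23.5 TPM with dDAVP alone. Csf1r rose (0.28 by limma, adjusted p = 0.0385), while the pan-leukocyte Ptprc did not exceed 0.52 TPM with tolvaptan or 0.68 TPM with dDAVP alone.

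The promoter table of RefSeq (build GRCm38.p6, another build than the one used for alignment) holds 38 windows for 32 of the 35 genes, each running from 250 bases before a transcription start to 50 bases after it. They were searched on both strands for the CArG box, which serum response factor (SRF) binds in cytoskeletal genes, for the AP-1 motif TGANTCA, for the TEAD core CATTCC and for the cAMP response element TGACGTCA. A CArG box was found in 5 of the 38 windows (13.2%), against 1.63% of all 32851 windows. They belong to Vcl, Cnn2 and Myl6, which rose, to Actg1, which was not called, and to Myl9, which was too low to test. Actb, which rose, Tagln and Rock1 have no window and were not searched for any motif. An AP-1 motif was in 5 windows (13.2%, against 7.81% of all), of Cald1, Mylk and Zyx, which rose, and of Actn4 and Myl12a, which were not called. The TEAD core was in 11 windows (28.9%, against 14.7% of all). These windows belong to Cald1, Flna, Myh10, Mylk, Tpm1 and Vcl, which rose, and to Tagln2, which fell. The rest belong to Actn4, Myl12a and Pfn1, which were not called, and to Acta2, which was too low to test. The cAMP response element was in 1 window (2.63%, against 1.79% of all), the window of Myl6 that lacks the CArG box. A match is a description of these letters and says nothing of whether a factor is bound.

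Stretches of 100 bases are shown for the genes with a CArG box, since both genes that rose and a gene that was not called carry it. The capitals mark the CArG box, and each stretch is written 5′ to 3′ on the strand of its gene. The stretch of Vcl is chr14:20929148-20929247 (plus strand), that of Cnn2 chr10:79988499-79988598 (plus strand), that of Myl6 chr10:128493010-128493109 (minus strand), that of Actg1 chr11:120348531-120348630 (minus strand) and that of Myl9 chr2:156775258-156775357 (plus strand).
Vcl: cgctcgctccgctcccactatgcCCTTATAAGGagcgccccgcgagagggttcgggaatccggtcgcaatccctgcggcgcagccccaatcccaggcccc
Cnn2: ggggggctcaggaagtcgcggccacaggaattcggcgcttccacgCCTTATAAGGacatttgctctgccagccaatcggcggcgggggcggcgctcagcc
Myl6: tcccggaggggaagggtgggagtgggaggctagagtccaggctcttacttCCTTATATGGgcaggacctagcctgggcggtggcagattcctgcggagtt
Actg1: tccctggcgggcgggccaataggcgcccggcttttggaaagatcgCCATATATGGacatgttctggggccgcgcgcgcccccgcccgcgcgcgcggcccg
Myl9: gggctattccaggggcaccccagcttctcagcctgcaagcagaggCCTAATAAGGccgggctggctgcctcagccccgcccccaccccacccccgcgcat
The boxes of Vcl and Cnn2 hold the same letters. Counted from the start at 0, the boxes begin at -227 in Vcl, -56 in Cnn2, -50 in Myl6, -90 in Actg1 and -161 in Myl9.

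The next stretches are those of the 3 genes that rose and hold an AP-1 motif, in capitals: Cald1 at chr6:34709200-34709299 (plus strand), before one of its 2 listed starts, Zyx at chr6:42349660-42349759 (plus strand) and Mylk at chr16:34784839-34784938 (plus strand).
Cald1: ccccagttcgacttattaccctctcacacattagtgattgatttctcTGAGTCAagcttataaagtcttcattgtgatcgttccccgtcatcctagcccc
Zyx: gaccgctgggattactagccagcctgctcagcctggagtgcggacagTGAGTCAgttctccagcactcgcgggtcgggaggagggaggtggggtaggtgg
Mylk: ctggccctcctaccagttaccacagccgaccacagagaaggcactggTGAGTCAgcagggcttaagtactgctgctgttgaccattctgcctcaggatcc
The 3 motifs read the same letters, TGAGTCA, and they begin at -197 in Cald1, -121 in Zyx and -64 in Mylk. These letters are not particular to genes that rose. Of the genes not called, Myl12a holds the same letters, beginning at -137, and Actn4 holds TGAATCA, beginning at -169.

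Among the actins, Actb rose and Actg1 was not called. Actb, the gene of cytoplasmic beta-actin, stood at 3659, 3516, 3833 and 3572 TPM in the tolvaptan libraries, against 3079, 3185, 2839 and 2616 TPM in the dDAVP libraries. No tolvaptan library came down to the highest dDAVP library, and the 2 lowest values were dDAVP replicates 3 and 4. Its log2 fold change was 0.32 (limma, SE 0.06, adjusted p = 0.00551). Actg1, the gene of cytoplasmic gamma-actin, stood at 429 to 443 TPM with tolvaptan, against 444 to 504 TPM with dDAVP alone. These groups did not overlap either, though they nearly met, and the log2 fold change of -0.11 did not pass (limma adjusted p = 0.109), but it passed with a common median (adjusted p = 0.0376) and after the GC adjustment (adjusted p = 0.0201). As a share of the summed TPM of the actins, Actb made up 89.3% ± 0.331 with tolvaptan and 86.0% ± 1.58 with dDAVP alone (SD, n = 4 each). Acta2, the actin of smooth muscle, did not exceed 0.18 TPM with tolvaptan or 0.48 TPM with dDAVP alone, and was listed at 0 in 2 dDAVP libraries. Of 50-base windows along the Actg1 transcript, 56.7% also occur in transcripts of 22 other genes, so part of its TPM rests on how reads were divided among them, and 14.2% of those of Actb do.

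Of the nonmuscle myosin heavy chains, Myh10 rose while Myh9 and Myh14 were not called. Myh10, the gene of myosin IIB, stood at 54.2, 62.3, 63.6 and 59.9 TPM with tolvaptan, against 44.5, 39.2, 38.8 and 36.7 TPM with dDAVP alone, and the groups were well apart. Its log2 fold change was 0.58 (limma, SE 0.07, adjusted p = 0.000425), and it was 0.58 again without tolvaptan replicate 4. The study lists Myh10 among its increased transcripts, a choice made on these libraries. Myh9, the gene of myosin IIA and the most abundant of the 3 by TPM, stood at 107, 117, 138 and 150 TPM with tolvaptan, against 120, 119, 115 and 110 TPM with dDAVP alone. The tolvaptan libraries lay on both sides of the dDAVP libraries, and the log2 fold change was 0.13 (95% confidence interval -0.08 to 0.34, limma adjusted p = 0.389). Both without tolvaptan replicate 4 and after the GC adjustment the value for Myh9 was 0.05 (adjusted p = 0.678 and 0.613). Myh14, the gene of myosin IIC, stood at 20.7, 23.8, 25.4 and 34.5 TPM with tolvaptan, against 32.0, 29.0, 32.2 and 27.6 TPM with dDAVP alone. Replicate 4 was the highest of all 8 libraries, while the other tolvaptan libraries lay below every dDAVP library. Over all libraries the log2 fold change of Myh14 was -0.22 (limma, SE 0.13, adjusted p = 0.271), without tolvaptan replicate 4 it was -0.36 (SE 0.08, adjusted p = 0.0114) and after the GC adjustment -0.33 (adjusted p = 0.0102).

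The makeup of the heavy chains differed between the groups. Myh10 made up 29.8%, 30.6%, 28.1% and 24.5% of their summed TPM with tolvaptan, against 22.7%, 21.0%, 20.8% and 21.0% with dDAVP alone. Myh14 made up 11.4%, 11.7%, 11.2% and 14.1% with tolvaptan, against 16.3%, 15.5%, 17.3% and 15.9% with dDAVP alone. Both shares separated the groups, replicate 4 included, in opposite directions. The share of Myh9 was 59.6% ± 1.71 with tolvaptan and 62.4% ± 1.14 with dDAVP alone (SD, n = 4 each), with overlap. These shares are descriptions and were not tested.

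Mylk, the gene of the kinase that phosphorylates the regulatory light chain, rose, with little spread among the tolvaptan libraries. It stood at 52.0, 52.5, 54.0 and 56.0 TPM with tolvaptan, against 42.0, 38.3, 37.8 and 34.7 TPM with dDAVP alone. The log2 fold change was 0.48 (limma, SE 0.06, adjusted p = 0.000511). Myl6, the essential light chain, rose less, with 694, 667, 650 and 731 TPM with tolvaptan, against 607, 578, 598 and 625 TPM with dDAVP alone. Its log2 fold change of 0.19 (limma, SE 0.05, adjusted p = 0.0215) did not pass with a common median (adjusted p = 0.0831), after the GC adjustment (adjusted p = 0.0688) or when dDAVP replicate 1, 2 or 3 was left out (adjusted p at most 0.0679). Nor did Myl6 pass without the TPM filter (limma adjusted p = 0.0822).

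The regulatory light chains were carried by Myl12a and Myl12b, and their values turn on tolvaptan replicate 4. Myl12a stood at 478, 460, 487 and 336 TPM with tolvaptan, against 384, 410, 397 and 406 TPM with dDAVP alone. Myl12b stood at 624, 601, 576 and 480 TPM with tolvaptan, against 549, 539, 552 and 569 TPM with dDAVP alone. In both genes replicate 4 was the lowest of all 8 libraries and the other tolvaptan libraries were above every dDAVP library. The log2 fold changes were 0.13 for Myl12a (adjusted p = 0.438) and 0.04 for Myl12b (adjusted p = 0.744), and without replicate 4 they were 0.25 (adjusted p = 0.000947) and 0.12 (limma adjusted p = 0.0339). After the GC adjustment neither passed (adjusted p = 0.631 and 0.908). Their transcripts share windows of 50 bases, 29.6% of Myl12a and 33.0% of Myl12b with other genes. The third regulatory light chain gene, Myl9, typical of smooth muscle, stood at 1.54, 2.60, 2.32 and 1.78 TPM with tolvaptan, against 0.81, 0.86, 0.63 and 1.58 TPM with dDAVP alone. In a fit of all 39780 genes above 0, in which 1.25% of genes rose, Myl9 did not pass (0.64 by limma, adjusted p = 0.135).

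**Figure D2:**
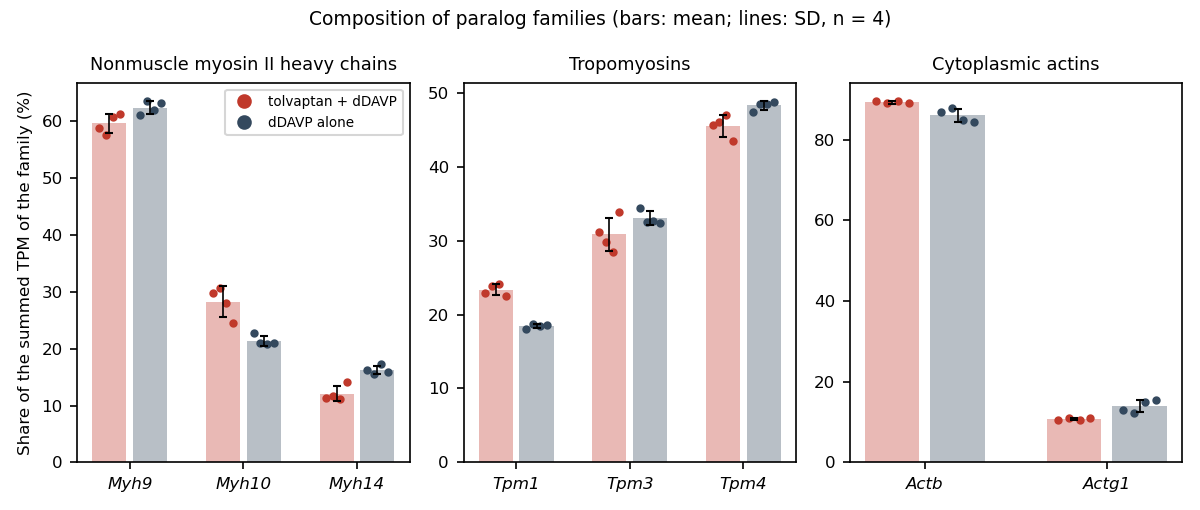
Share of each gene in the summed TPM of its family (y axis, %) for the heavy chains of nonmuscle myosin II, the tropomyosins and the cytoplasmic actins, with 1 point for each library, bars at the mean and lines of 1 SD (n = 4 each), tolvaptan plus dDAVP on the left and dDAVP alone on the right of each pair; genes under 1% of their family (Tpm2, Acta2) are not drawn. Myh10 averaged 28.3% with tolvaptan and 21.4% with dDAVP alone, and Tpm1 23.3% with tolvaptan and 18.5% with dDAVP alone.

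The largest log2 fold change among the 29 genes tested was in Cald1, the gene of caldesmon, which binds actin, tropomyosin and myosin. It stood at 167, 178, 172 and 183 TPM with tolvaptan, against 97.5, 83.7, 105 and 93.5 TPM with dDAVP alone. The groups lay far apart, and the log2 fold change of 0.88 (limma, SE 0.07, adjusted p = 1.65e-05) was 0.86 both without tolvaptan replicate 4 and after the GC adjustment. Of the 3 tropomyosins tested, Tpm1 was the one called. Tpm1 stood at 229, 228, 246 and 212 TPM with tolvaptan, against 162, 169, 168 and 172 TPM with dDAVP alone, with a log2 fold change of 0.44 (limma, SE 0.05, adjusted p = 0.000274). Tpm3 and Tpm4 stood at 301 and 446 TPM with tolvaptan, against 300 and 439 TPM with dDAVP alone. Their log2 fold changes were 0.005 (95% confidence interval -0.10 to 0.11) for Tpm3 and 0.02 (-0.09 to 0.13) for Tpm4, intervals that lie below the value of Tpm1. Without tolvaptan replicate 4 they were -0.02 for Tpm3 and 0.06 for Tpm4, and after the GC adjustment -0.04 for Tpm3 and -0.01 for Tpm4. Tpm1 made up 23.3% ± 0.775 of the tropomyosin TPM with tolvaptan and 18.5% ± 0.333 with dDAVP alone, and Tpm4 45.5% ± 1.53 with tolvaptan and 48.3% ± 0.611 with dDAVP alone (SD, n = 4 each). Of the 50-base windows of Tpm3, 62.4% occur in other genes, with Tpm3-rs7 sharing the most.

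Tpm2 was scarce but separated the groups. It stood at 3.60, 3.06, 3.57 and 3.31 TPM with tolvaptan, against 2.16, 2.50, 2.34 and 2.12 TPM with dDAVP alone. In the fit without the TPM filter its log2 fold change of 0.42 just missed the threshold (limma adjusted p = 0.0525), and it passed where genes with a mean of at least 1 TPM were tested.

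Of the calponins, which bind actin and dampen the myosin ATPase, Cnn2 was called and the more abundant Cnn3 was not. Cnn2 stood at 240, 246, 267 and 271 TPM with tolvaptan, against 222, 233, 215 and 226 TPM with dDAVP alone, a log2 fold change of 0.19 (limma, SE 0.05, adjusted p = 0.0303). The call was lost with a common median (adjusted p = 0.0683) and without any 1 of tolvaptan replicate 3 and dDAVP replicates 1, 3 and 4 (adjusted p up to 0.0902). Cnn3 stood at 686, 675, 731 and 629 TPM with tolvaptan, against 641, 637, 631 and 647 TPM with dDAVP alone. It was lowest in tolvaptan replicate 4, without which it passed (0.13 by limma, adjusted p = 0.0221, against 0.09 and 0.225 with it), and after the GC adjustment it did not (0.04, adjusted p = 0.508). Cnn1, the calponin of smooth muscle, did not exceed 0.28 TPM with tolvaptan or 0.23 TPM with dDAVP alone.

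The transgelin gene that this epithelium expresses was the one member that fell. Tagln2 stood at 203, 204, 212 and 233 TPM with tolvaptan, against 250, 258, 246 and 244 TPM with dDAVP alone. All tolvaptan libraries were below all dDAVP libraries, with replicate 4 nearest to them, and the log2 fold change was -0.23 (limma, SE 0.05, adjusted p = 0.0148). Without tolvaptan replicate 4 it was -0.27, and the call was lost when replicate 2 of either group was left out (adjusted p at most 0.0507). Tagln, the smooth muscle transgelin, was at 0.73 to 1.47 TPM with tolvaptan, against 0.64 to 1.08 TPM with dDAVP alone, with overlap, and 48.3% of its windows occur in other genes.

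**Figure D3:**
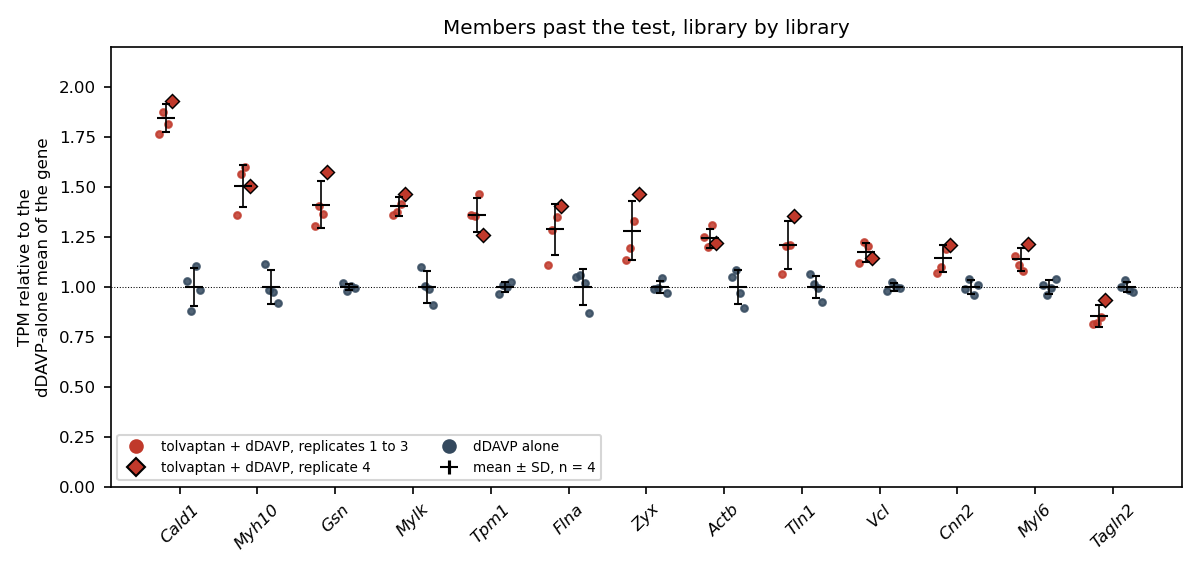
TPM of the 13 called genes in each library, divided by the gene's mean with dDAVP alone (y axis), with tolvaptan plus dDAVP on the left and dDAVP alone on the right of each pair; points are libraries, diamonds are tolvaptan replicate 4, and crosses are mean and SD (n = 4). Cald1 averaged 1.85 times the dDAVP mean and Tagln2 0.855 times, and only Tln1 has groups that overlap.

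Among the crosslinkers and the proteins that link filaments to adhesions, 4 of 6 rose and the alpha-actinins were not called. Flna, the gene of filamin A, an orthogonal crosslinker, stood at 124, 144, 151 and 157 TPM with tolvaptan, against 117, 119, 114 and 96.9 TPM with dDAVP alone. Zyx, the gene of zyxin, a LIM protein of focal adhesions and stress fibers, stood at 74.5, 78.5, 87.3 and 96.4 TPM with tolvaptan, against 64.9, 65.5, 68.7 and 63.8 TPM with dDAVP alone. In both genes the groups did not overlap, and the tolvaptan libraries spread more widely than the dDAVP libraries. The log2 fold changes were 0.36 for Flna (SE 0.08, adjusted p = 0.0188) and 0.35 for Zyx (limma, SE 0.07, adjusted p = 0.0126). Both genes were highest in tolvaptan replicate 4. Without it the log2 fold changes were 0.32 for Flna and 0.28 for Zyx. After the GC adjustment they were 0.30 for Flna and 0.27 for Zyx, and both genes passed in both fits. The call of Flna was lost without tolvaptan replicate 2 or 3 (adjusted p up to 0.0507).

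Vcl, the gene of vinculin, which binds talin and actin at adhesions, stood at 92.5, 101, 99.3 and 94.6 TPM with tolvaptan, against 80.9, 84.7, 82.4 and 82.1 TPM with dDAVP alone. The gap between the groups was larger than the range within the dDAVP group, and the log2 fold change of 0.23 (limma, SE 0.04, adjusted p = 0.00686) passed in all 17 alternative settings. Of its 50-base windows 39.2% occur in other genes, as do 30.3% of those of Cnn3, 25.1% of Rhoa and 23.0% of Cfl1, so that these values are uncertain in the same way as that of Actg1. Tln1, the gene of talin 1, which binds integrin tails, stood at 45.9, 52.0, 52.3 and 58.6 TPM with tolvaptan, against 46.0, 43.8, 43.0 and 40.1 TPM with dDAVP alone. Tolvaptan replicate 1 lay within the dDAVP range, and the log2 fold change of 0.26 (limma, SE 0.07, adjusted p = 0.0362) passed in 6 of 17 alternative settings. Among those it missed were the common median (adjusted p = 0.061), quantile normalization and the fits without each dDAVP library and without tolvaptan replicates 2 and 3 (adjusted p up to 0.106). Tln1 was highest in tolvaptan replicate 4. Without that library its log2 fold change was 0.21, and after the GC adjustment 0.19, and it passed in both fits. Actn4, the main alpha-actinin here, stood at 390, 433, 448 and 493 TPM with tolvaptan, against 407, 402, 408 and 401 TPM with dDAVP alone, and Actn1 at 89.1 to 121 TPM with tolvaptan, against 91.7 to 101 TPM with dDAVP alone. Both had one tolvaptan library below the dDAVP range, replicate 1, and neither passed (log2 fold change 0.12, adjusted p = 0.225 for Actn4, and 0.09, adjusted p = 0.49 for Actn1). Without tolvaptan replicate 1, Actn4 passed (0.18, limma adjusted p = 0.0409). Without tolvaptan replicate 4 the log2 fold change was 0.06 for Actn4 (adjusted p = 0.331) and 0.01 for Actn1 (adjusted p = 0.935), and after the GC adjustment it was 0.05 for Actn4 and 0.03 for Actn1.

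Of the genes of filament turnover, gelsolin rose and cofilin and profilin were not called. Gsn, which encodes the calcium-activated severing and capping protein gelsolin, stood at 315, 339, 329 and 380 TPM with tolvaptan, against 246, 236, 242 and 241 TPM with dDAVP alone. The dDAVP libraries lay close together and every tolvaptan library was well above them. The log2 fold change was 0.49 (limma, SE 0.06, adjusted p = 0.00028), and 0.44 without tolvaptan replicate 4. Cfl1, the gene of the severing protein cofilin 1, stood at 1394, 1351, 1334 and 1508 TPM with tolvaptan, against 1319, 1284, 1260 and 1304 TPM with dDAVP alone. Its groups did not overlap, but its log2 fold change of 0.11 did not pass (limma adjusted p = 0.109). It was 0.20 with quantile normalization, where it passed (adjusted p = 0.0255), 0.07 with a common median, 0.07 without tolvaptan replicate 4 and 0.06 after the GC adjustment (adjusted p = 0.341). Pfn1, the gene of the monomer-binding profilin 1, was at 1804, 1806, 1802 and 2017 TPM with tolvaptan, against 1931, 1886, 1852 and 1897 TPM with dDAVP alone. Only replicate 4 was above the dDAVP range and the other tolvaptan libraries were below it, with a log2 fold change of -0.03 (limma adjusted p = 0.687). It was -0.07 without replicate 4 (adjusted p = 0.0591) and -0.10 after the GC adjustment (adjusted p = 0.0579).

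The small GTPases and kinases that command contraction were not among the called genes. Of Rhoa, Rhoc, Rock1 and Rock2, 0 of 4 passed an adjusted p of 0.05 from limma and 0 had an unadjusted p under 0.05. Rhoa stood at 172 to 183 TPM with tolvaptan, against 180 to 197 TPM with dDAVP alone, a log2 fold change of -0.09 (95% confidence interval -0.18 to 0.01), and it passed after the GC adjustment (-0.13, limma adjusted p = 0.0468). Rhoc stood at 243, 244, 246 and 294 TPM with tolvaptan, against 252, 244, 238 and 242 TPM with dDAVP alone, and only replicate 4 left the common range. Its log2 fold change was 0.07 (adjusted p = 0.504) with replicate 4 and -0.00016 without it (limma adjusted p = 0.998). Rock1 and Rock2 were at their lowest in that library. Rock1 stood at 32.5, 31.5, 32.1 and 26.1 TPM with tolvaptan, against 31.6, 31.0, 32.5 and 31.8 TPM with dDAVP alone. Rock2 stood at 85.9, 87.4, 87.5 and 69.1 TPM with tolvaptan, against 79.8, 75.8, 76.8 and 80.5 TPM with dDAVP alone. Without replicate 4, Rock2 passed with a log2 fold change of 0.15 (limma adjusted p = 0.018), against 0.07 (95% confidence interval -0.10 to 0.23) with it, and Rock1 did not (0.01, adjusted p = 0.848).

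Rhob, an inducible GTPase gene, lay under the filter. It stood at 5.20, 5.86, 5.26 and 6.63 TPM with tolvaptan, against 4.37, 3.52, 3.89 and 2.78 TPM with dDAVP alone, with no overlap. The log2 fold change was 0.54 (SE 0.12, limma adjusted p = 0.0652, fit without the filter). With genes of a mean of at least 1 TPM tested, Rhob and Tpm2 were called as well, so that 14 of 33 members rose, against 8.26% of all genes.

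**Figure D4:**
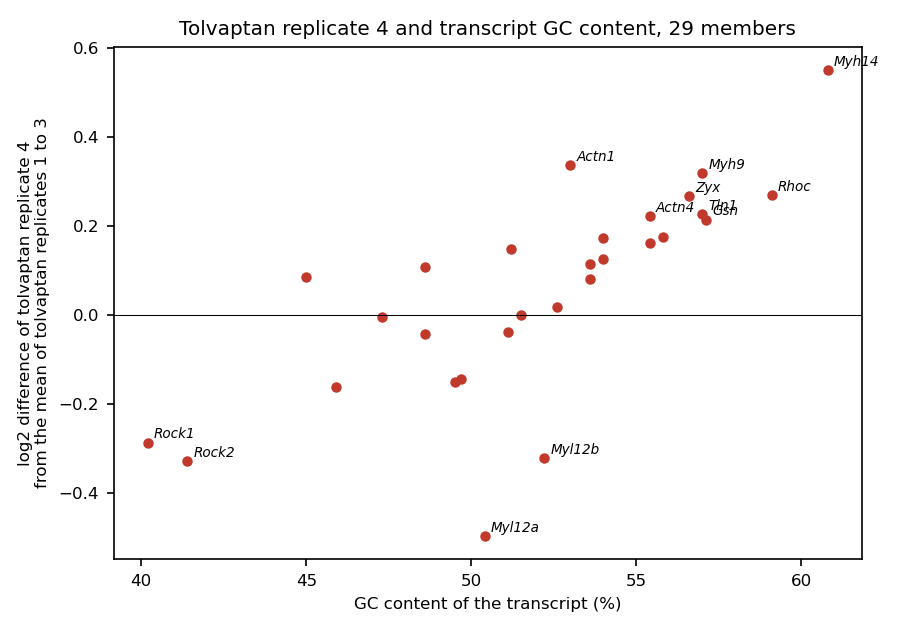
Log2 difference of tolvaptan replicate 4 from the mean of the other tolvaptan libraries (y axis) against the GC content of the transcript (x axis, %) for the 29 genes tested; each point is a gene. The AT-rich Rock1 and Rock2 lie below 0 and the GC-rich Myh14 and Rhoc above, and Myl12a and Myl12b lie lower than genes of like GC content.

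The direction of the deviation in replicate 4 differed by gene. It was the highest tolvaptan library for 17 of the 29 genes, whose median GC content was 55.4%, and the lowest for 7, whose median GC content was 49.5%. The GC content of the 29 transcripts ran from 40.2% for Rock1 to 60.8% for Myh14. In the 12 genes that rose, the ratio of the mean of tolvaptan replicates 1 to 3 to the mean of the dDAVP libraries ran from 1.11 to 1.82, and all 12 passed when replicate 4 was left out. Cald1, Myh10, Gsn, Mylk, Tpm1, Actb and Vcl passed in all 17 alternative settings.

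**Figure D5:**
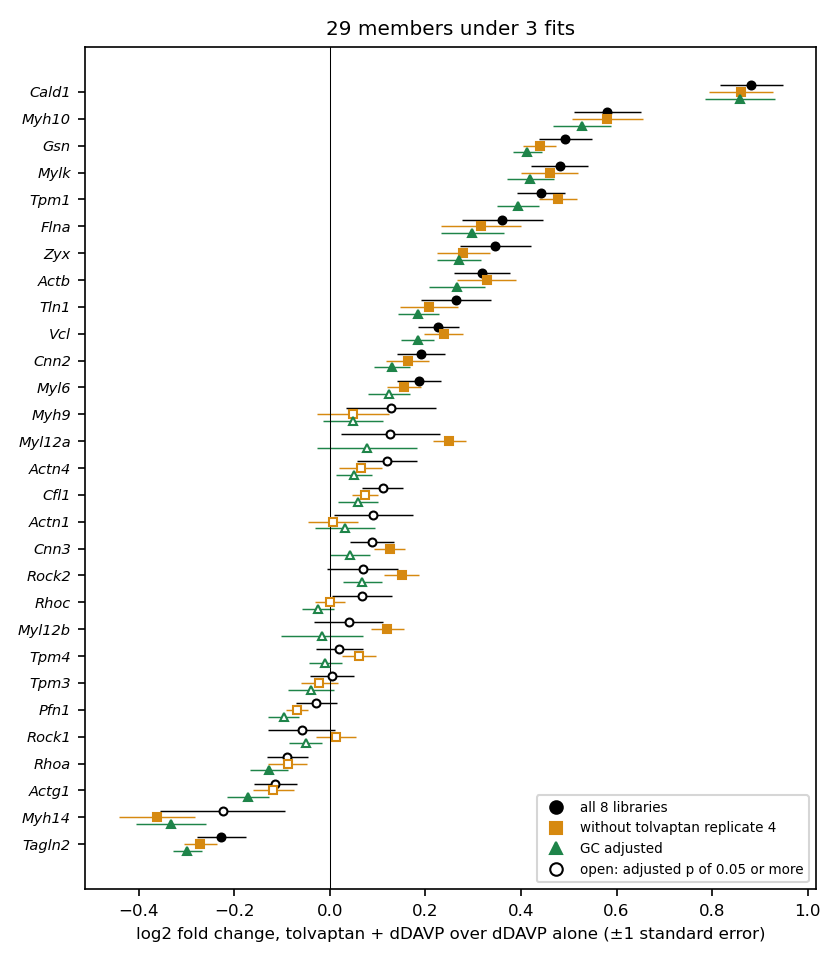
Log2 fold changes of the 29 genes with 1 standard error (x axis) from all 8 libraries, without tolvaptan replicate 4, and after the GC adjustment; filled symbols passed an adjusted p of 0.05. Without replicate 4, Myl12a, Myl12b, Cnn3 and Rock2 are called higher and Myh14 lower, and after the GC adjustment Myh14, Actg1 and Rhoa are called lower and Myl6 is no longer called.

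By summed level, the 35 genes summed to 13290, 13150, 13620 and 13620 TPM with tolvaptan, against 12300, 12260, 11930 and 11810 TPM with dDAVP alone. The groups did not overlap in this sum. Without Actb, which holds the largest part, the sum was 9776 ± 196 TPM with tolvaptan, against 9144 ± 71.4 TPM with dDAVP alone (mean ± SD, n = 4 each).

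Other genes of the actin cytoskeleton were counted in further lists, to be read against the 10% of all genes that rose and the 6.1% that fell. The focal adhesion plaque held more rises than any other list, with 7 of 24 genes higher and 0 lower by limma (0 lower at an unadjusted p under 0.05 as well). Tns1, a tensin that links integrins to actin, averaged 63.0 ± 3.25 TPM with tolvaptan, against 47.9 ± 2.93 TPM with dDAVP alone, and the pseudokinase gene Ilk 311 ± 12.0 TPM with tolvaptan, against 257 ± 5.48 TPM with dDAVP alone (mean ± SD, n = 4 each). The LIM protein genes Csrp1 and Trip6 had log2 fold changes of 0.20 each. Of 18 genes of the Arp2/3 complex and the formins, which nucleate filaments, 2 rose and 2 fell, Fhod3 (0.67) and Arpc1a (0.18) against Arpc2 (-0.17) and Arpc5 (-0.24). Of 21 genes of the cofilin pathway, capping and monomer binding, Tmsb10, a thymosin that sequesters actin monomers, rose (0.49) and the kinase Pak2 fell (-0.17).

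Of 9 genes of the myosin phosphatase and other light chain kinases, the citron kinase gene Cit rose (0.57) and the phosphatase catalytic subunit gene Ppp1cb fell (-0.25).

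Of 16 other filament binding genes, Synpo had the largest change of any gene in these lists and fell. Synaptopodin, an actin-associated protein that binds alpha-actinin, averaged 17.7 ± 2.02 TPM with tolvaptan, against 39.6 ± 1.64 TPM with dDAVP alone (mean ± SD, n = 4 each), which is -1.12 on the log2 scale (limma, SE 0.08, adjusted p = 8.17e-06). Pls1, a plastin of microvilli, fell (-0.27), and Dbn1, the gene of drebrin, rose (0.60), and is listed by the study among its increased transcripts on these libraries. Of 6 tested genes in a list of SRF, its coactivators and related genes, Mrtfb, an actin-regulated coactivator, rose (0.23, limma adjusted p = 0.0297). Scai and Fosl1 were among the related genes listed. Of the muscle isoforms, 3 of 26 were tested, with Smtn, the gene of smoothelin, higher (0.42) and Smtnl2 lower (-0.19).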

How the data were processed

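RNA was sequenced from 8 libraries of mpkCCD cells. The authors aligned reads by STAR to Ensembl release 106 and estimated expression by RSEM. The deposited table used here holds TPM. Counts were not used here, so depth is unknown from this table, no counting interval is given, and the DESeq2 test named in the methods was not repeated. The versions of STAR and RSEM are not given in the sources used here. Columns were matched to samples by group and replicate number. The values were compared unpaired by limma 3.58.1 in R 4.3.3 (log2(TPM + 1), variance trend, 2-sided, Benjamini-Hochberg over 9943 genes with a maximum over 10 TPM). Members under that filter were read from a fit of all 39780 genes above 0. All 35 members are named, and from each further list up to 4 called genes, those of smallest p. The members and lists were chosen with earlier results of these data known. 1 further list and 1 family share are not reported here.

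GC content and the share of 50-base windows found in other genes come from GENCODE M21 transcripts, matched by gene ID (98.9% of tested genes). Promoter sequences are from RefSeq, GRCm38.p6. On simulated data with the spread of these libraries, limma was tested for recovery of known changes. Alternatives were pseudocounts of 0.1 and 5, other filters, a common median, quantile normalization, no variance trend, replicate number as a block, leaving out each library, and, added after seeing the data, a GC adjustment (lowess, span 0.3).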

Additional observations from a re-analysis of the deposited data

Results flagged for a closer look

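In 4 of 70 groups of 4 values, 1 library lay far from the rest of its group, and chance flags about 1 in 20 such groups. All 4 values belong to tolvaptan replicate 4. It held 2017 TPM of Pfn1, against 1802 to 1806 TPM in the other tolvaptan libraries, and 294 TPM of Rhoc, against 243 to 246 TPM. It held 26.1 TPM of Rock1, against 31.5 to 32.5 TPM, and 69.1 TPM of Rock2, against 85.9 to 87.5 TPM. The transcripts of Rhoc and Pfn1 have GC contents of 59.1% and 55.4%, and those of Rock1 and Rock2 40.2% and 41.4%. Why this library differs was not tested.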

How the results depend on the processing

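The count of 12 genes that rose ran from 9 to 16 with 1 library left out and from 9 to 14 under the other settings (14 of 33 where a mean of at least 1 TPM was asked for), except without a filter, where 39780 genes were adjusted for and 7 rose. Over all genes, the share that rose ran from 4.67% to 15.2% with 1 library left out, and was 15.2% where 16 members rose. It was 5.18% to 10.2% under the other settings, 5.18% being that with the replicate block, and 1.25% without a filter. The count of 1 that fell was 0 without a filter (3 at an unadjusted p under 0.05 from limma), 0 with a replicate block (2 at an unadjusted p), 2 with a common median, 4 after the GC adjustment and 0 to 2 with 1 library left out. In the same order, the share of all genes that fell was 1.06%, 3.98%, 8.3%, 12.5%, and 4.16% to 8.73%. The median log2 fold change of the members tested ran from 0.06 to 0.16 over the 17 settings. Of the 13 calls, 7 held in all 17 settings, and Zyx was lost without a filter alone. The fit without a filter also lost Myl6, Cnn2, Tagln2, Flna and Tln1 (adjusted p = 0.0822, 0.101, 0.0553, 0.0861 and 0.136 from limma). With the replicate block 9 genes rose, and Cnn2, Tagln2, Flna and Tln1 were lost (adjusted p = 0.0819, 0.0567, 0.0597 and 0.103 from limma). The sample records do not say whether libraries of the same number belong together. The deviations of same-numbered libraries from their group means correlated at -0.07 to -0.005. These deviations also carry the GC trend of the tolvaptan libraries, so they cannot decide whether the samples are paired. The main fit treats them as unpaired. No called gene changed sign in any setting. TPM hold no depth, so the precision of scarce genes such as Myl9, Tpm2 and Rhob cannot be given beyond the spread between libraries.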
